A study of Mus musculus with 4 samples.

Results

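The stretch of mouse chromosome 12 from 80 to 81 Mb (mm9 build), which holds the gene Rad51b, carried 60 of the 24836 ESR1 peaks called in uterus and 4 of the 6932 called in liver. A peak was taken as a member when its summit, the position of highest tag pile-up, lay in this 1 Mb window. The window was chosen by its peak counts, many in the uterus list and few in the liver list, so these counts are given as a description and were not tested. The data came from chromatin immunoprecipitation sequencing (ChIP-seq) of the estrogen receptor alpha, ESR1, in frozen liver and uterus of female C57BL/6 mice aged 8 weeks, for which the labels name no treatment. Of the 4 samples, each of the 2 tissues had an ESR1 library and an input control, and the controls were used through the authors' peak calling. Each tissue was thus represented by 1 library, and the sources used here do not give the number of animals in it. A difference between the lists therefore cannot be told apart from a difference between 2 libraries, and in whole tissue more cells with a bound site cannot be told apart from more binding per cell.

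Estrogen-bound ESR1 acts as a transcription factor. It sits at estrogen response elements, or is held on chromatin through other factors, often at enhancers that can lie far from the genes they act on. The uterus is a classical target organ of estrogens, and hepatocytes also express the receptor. Rad51b, formerly Rad51l1, encodes a protein that takes part in the repair of DNA breaks by homologous recombination. In humans, the ortholog of Rad51b is a known rearrangement partner of HMGA2 in uterine leiomyoma, a benign tumour of smooth muscle.

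Rad51b lies at about 80.39 to 80.92 Mb in mm9. This extent is approximate and was not read from an mm9 annotation, so whether a site is exonic or intronic was not determined. In the RefSeq gene table of the GRCm38.p6 assembly, used here only for names and order, Zfyve26, which encodes an endosomal and lysosomal protein, is the neighbour before Rad51b with no gene between them. On the other side the next protein-coding gene is Zfp36l1, which encodes an RNA-binding protein that promotes mRNA decay. Between Rad51b and Zfp36l1, in the order of their starts, the table lists 12 genes, 10 of them long non-coding RNAs and 2 pseudogenes. Which gene, if any, the sites act on was not tested.

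The uterus sites did not fill the window evenly. They were sparse before Rad51b, with 10 sites in 0.39 Mb (25.6 per Mb). Inside the gene there were 36 sites in 0.53 Mb (67.9 per Mb), and after it 14 sites in only 0.08 Mb (175 per Mb). The highest density therefore lay past the approximate end of Rad51b and not in it. The assignment would change only if the ends moved by several kb: the sites on either side of the approximate start had their summits 35.5 kb before and 17.3 kb after it, and those on either side of the end 9.92 kb before and 13.9 kb after it. All 4 liver sites lay inside the approximate extent of the gene.

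The dense stretch also ran across the end of the window. The first uterus peak past 81 Mb lay 8.33 kb outside, at 81007906 to 81008827 (57 tags, 5.71-fold over control). Between 81 and 81.12 Mb there were 18 further uterus peaks and no liver peak. One of them, at 81049809 to 81050839, held 513 tags at 93.2-fold, more than any site inside the window. Taken across the edge, 32 uterus peaks and no liver peak lay between 80.92 and 81.12 Mb, and the following uterus summit came only after a gap of 99.7 kb. The edge at 81 Mb thus divided this stretch, while the other edge fell in an empty region. The last uterus peak before the window, at 79326677 to 79327597 (85 tags, 12.4-fold), lay 673 kb from the edge, against 13.0 kb from the edge to the first site inside. In liver the nearest peaks outside lay 912 kb before the window (223 tags, 43.6-fold) and 181 kb after it (78 tags, 10.8-fold).

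**Figure D1:**
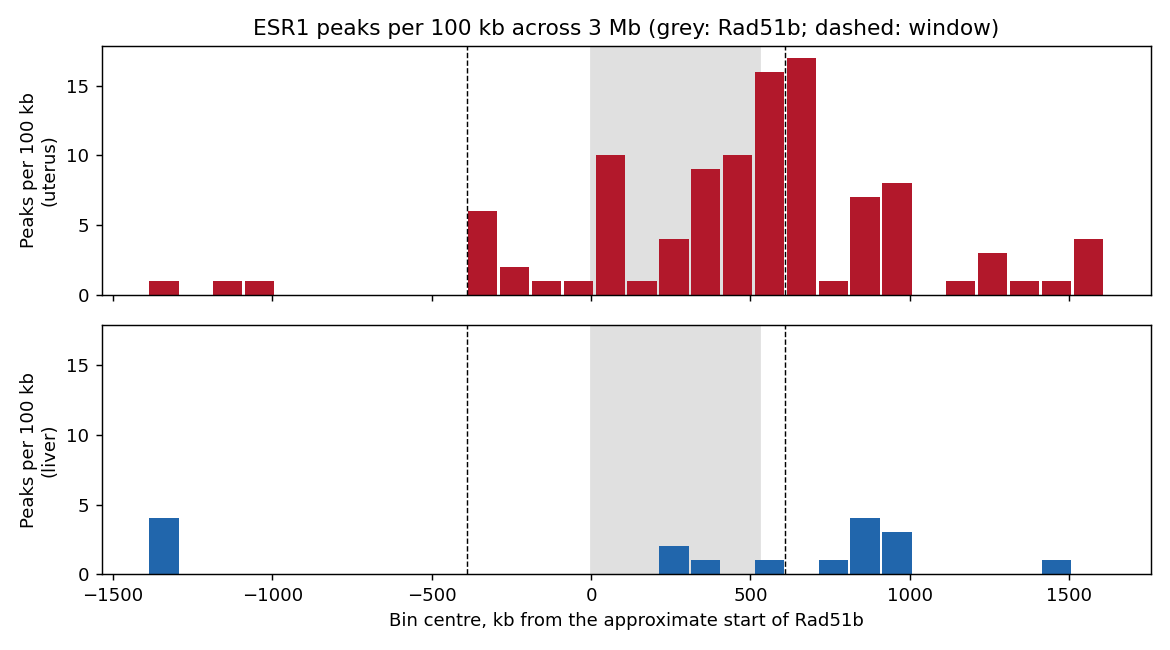
Number of ESR1 peaks per 100 kb in uterus (top) and liver (bottom) across 3 Mb, against the distance of the bin centre from the approximate start of Rad51b in kb; grey marks the approximate extent of the gene and dashed lines the 1 Mb window. The uterus bins hold at most 1 peak in the megabase before the window and reach 16 in the last bin inside it and 17 in the first bin outside.

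The megabase before the window held 3 uterus and 4 liver peaks, and the one after it 43 uterus and 9 liver peaks. Over 2644 windows of 1 Mb, the median was 7 uterus peaks and 1 liver peak. By uterus peaks the Rad51b window ranked 1, ahead of windows on chromosome 1 from 92 Mb (59 uterus and 3 liver peaks) and chromosome 8 from 122 Mb (57 and 14). The order among these leading windows depended on the threshold: the rank was 2 when both lists were limited to a MACS score of at least 200, and 3 at a fold enrichment of at least 10. This score of the peak caller MACS is −log10 of a peak's p-value multiplied by 10.

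Peaks in the window were not limited to uterus. The 4 liver peaks were more than the median window had, and only 570 windows, or 21.6%, held more. There were 15 uterus peaks for each liver peak, against 3.58 over the whole lists. Liver peaks made up 6.25% of all peaks in the window and 21.8% in the whole lists. Because the window was chosen by these counts, the ratio and the share only describe that choice. Of the 92 windows with at least 30 uterus peaks, a limit set after the values were seen, 26 (28.3%) had at least 15 uterus peaks for each liver peak, among them 7 windows with no liver peak. In 39 of the 92 (42.4%) there were 4 liver peaks or fewer, and the median was 6. In contrast, the window from 26 to 27 Mb on chromosome 14, which holds Zmiz1, had 53 uterus and 29 liver peaks, the most liver peaks of any window.

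**Figure D2:**
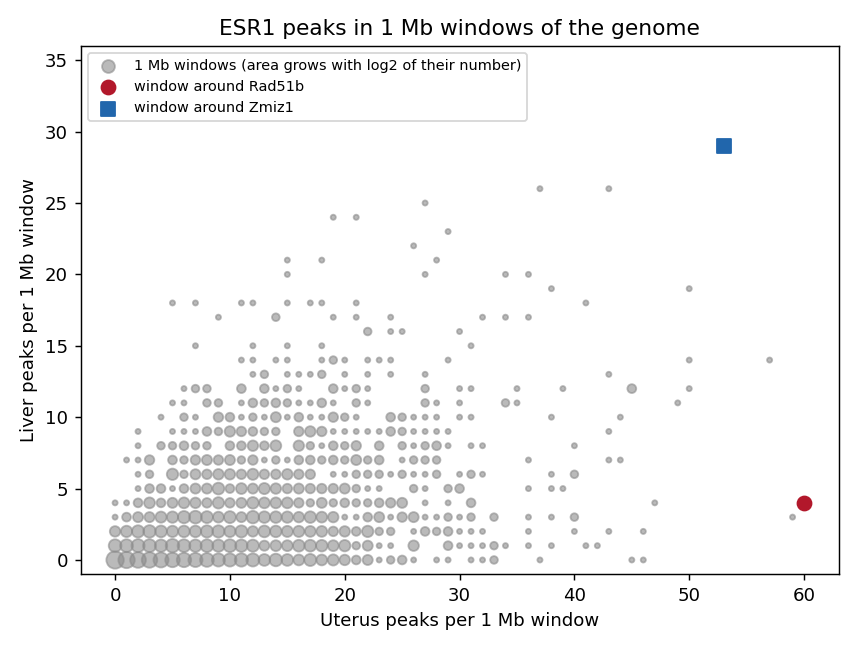
Liver against uterus peaks in each 1 Mb window of the genome (grey, with an area that grows with the log2 of the number of windows at that point), the Rad51b window (red) and the Zmiz1 window (blue square). The Rad51b window lies farthest to the right, at 60 uterus and 4 liver peaks, beside other windows with many uterus and few liver peaks.

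Each site is described by its tags, which are the raw count of ChIP reads in the peak and are not scaled to depth, and by the fold enrichment over the local control level, which is the authors' own value. Both are used within a list and not to compare the tissues. The tags of the 60 uterus sites ranged from 30 to 411 with a median of 76, against a median of 55 in the whole uterus list. At least 100 tags were found in 18 of 60 sites (30%, Wilson interval 19.9 to 42.5), against 20.3% of the whole list. The median width was 634 bp against 579 bp, and 10 sites (16.7%) were wider than 1 kb, against 8.29% of the list. Fold enrichment showed no such shift, with a median of 15.0 in the window and 14.7 in the list. Per kb of peak the median was 110 tags against 91.4. The sites were therefore more tag-rich and wider than a typical uterus peak in this library, at a typical enrichment over control. This was not particular to the window: the uterus peaks of the Zmiz1 window had medians of 81 tags, 667 bp and 13.7-fold, and those of the megabase after the Rad51b window 75 tags, 683 bp and 14.1-fold. It also did not hold in each part of the window: the 10 sites before Rad51b had a median width of 549 bp. The median enrichment was 27-fold before, 12.2-fold inside and 17.9-fold after the gene. Peaks of 1 library are not replicates, and these differences were not tested.

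Tags were spread unevenly over the sites. The 8 sites with the most tags held 2189 of the 5970 tags in the uterus peaks of the window (36.7%), and the 3 leading ones 19.4%. These shares were not computed for other windows or the whole list, so they are not a trait particular to the window. In the following, the uterus sites are numbered 1 to 60 along the chromosome, and tag counts carry 95% Poisson intervals that cover counting error only. The leading site, site 30, lay inside Rad51b at 80761934 to 80762999 and held 411 tags (372 to 453) at 58.9-fold. Its MACS score was 3100, a value that 279 peaks of the uterus list share. It ranked 257 by tags among the 24836 uterus peaks.

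The next site by tags, site 12, was the widest of the window. It spanned 2029 bp near the start of the gene, at 80427143 to 80429171, and held 389 tags (351 to 430) at 35.2-fold. Site 60, the last of the window, lay after the gene at 80992804 to 80993658 with 359 tags (323 to 398). It had the highest fold enrichment of the window, 79.2, and the highest tag density, 420 tags per kb. These 3 sites stood apart: their intervals overlapped each other, and all 3 lay above that of site 52, the next by tags.

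Sites 51 and 52 formed a close pair after the gene, with summits 2.44 kb apart. Site 51, at 80954916 to 80955652, held 231 tags (202 to 263) at 57.4-fold, and site 52, at 80956480 to 80958175, held 273 tags (242 to 307) at 27.1-fold. The wider peak of the pair thus held more tags at the lower enrichment. The other 3 of the 8 lay inside Rad51b and combined many tags with low enrichment. Site 37, at 80836186 to 80837328, had 208 tags (181 to 238) at 12.5-fold. Site 23, at 80607421 to 80608734, had 160 tags (136 to 187) at 8.73-fold. Site 33, at 80775922 to 80777289, had 158 tags (134 to 185) at 9.32-fold. These 3 peaks were 1143 to 1368 bp wide, and the fold enrichment of sites 23 and 33 was below the lower quartile of the list, 10.7.

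**Figure D3:**
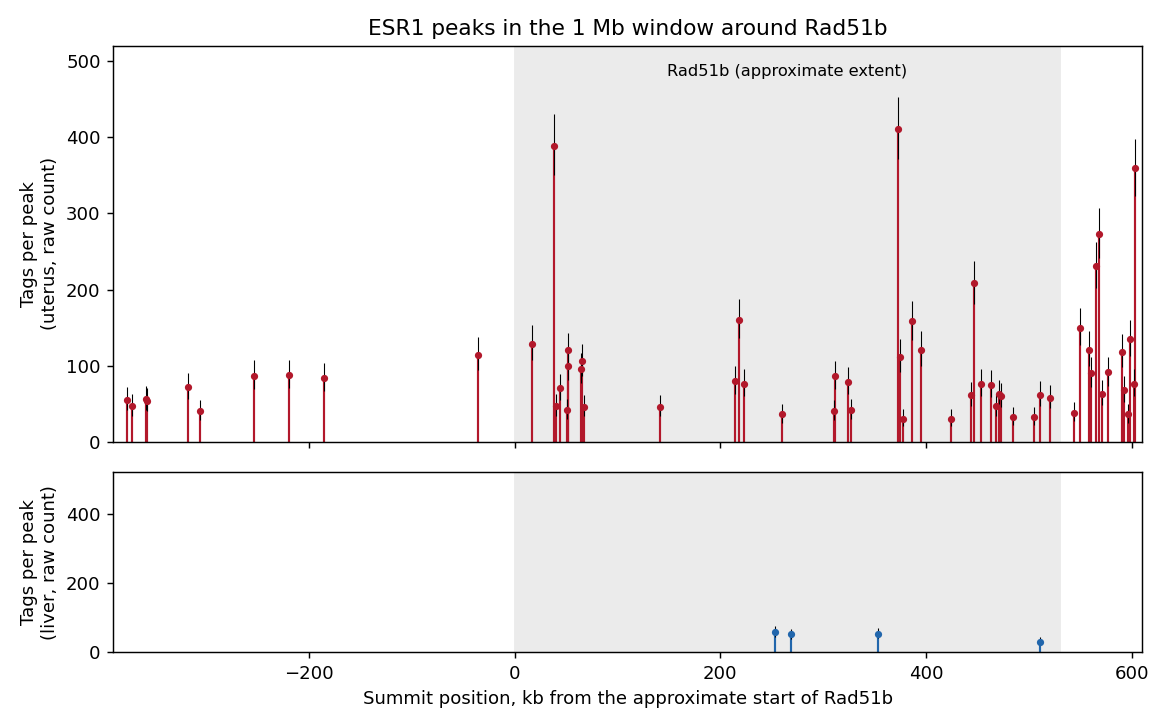
Tags per peak (raw count; black bars, 95% Poisson interval) for the 60 uterus sites (top) and the 4 liver sites (bottom) on the same scale, against the distance of the summit from the approximate start of Rad51b in kb; grey marks the approximate extent of the gene. Uterus sites before the gene reach at most 114 tags, while sites inside and after it reach 411 and 359. The liver sites hold 31 to 59 tags. Tags are not scaled to depth, so heights are to be read within a tissue and not between the tissues.

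By fold enrichment the picture along the window was different from that by tags. The 10 sites before Rad51b held 40 to 114 tags with a median of 64, below the 76 of the whole window and above the 55 of the list, at a median enrichment of 27-fold. The strongest of them, site 10 at 80354265 to 80354747, reached 66.1-fold with 114 tags (94 to 137) in a peak of only 483 bp. This was the second highest enrichment of the window. Sites 7, 8 and 9, at 80136232 to 80136854, 80170457 to 80171018 and 80204815 to 80205350, were alike in strength. They held 87, 88 and 84 tags at 44.0-, 46.6- and 44.9-fold, and their summits were 34.2 and 34.3 kb apart. Each stood alone, with no other uterus summit within 10 kb. The first site of the window, site 1 at 80012636 to 80013291, was the weakest of this segment by enrichment, with 55 tags (41.4 to 71.6) at 11.1-fold.

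Inside Rad51b the median was 72.5 tags, but the median enrichment was only 12.2-fold, and 13 of the 36 sites (36.1%, Wilson interval 22.5 to 52.4) lay under 10-fold. The share was 16 of 60 (26.7%) in the window and 20.2% in the whole uterus list. All 4 sites of lowest enrichment lay here. Site 46, at 80909761 to 80910332, had 58 tags at 6.00-fold, and site 28, at 80713244 to 80714185, had 79 tags at 6.97-fold. Site 40, at 80857202 to 80857809, had 47 tags at 7.28-fold, and site 24, at 80612560 to 80613571, had 76 tags at 8.34-fold. All but site 40 held more tags than the list's median of 55, so they were weak by enrichment rather than by tags.

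The 14 sites after the gene and inside the window had both more tags and a higher enrichment than those inside the gene, with medians of 104 tags and 17.9-fold. This contrast was smaller when the peaks past the window edge were counted. The 18 uterus peaks from 81 to 81.12 Mb had medians of 61.5 tags, fewer than inside the gene, and 13.3-fold. Their enrichment was still above the 12.2-fold inside the gene. All 32 uterus peaks from 80.92 to 81.12 Mb had medians of 90.5 tags and 15.1-fold, both higher than inside the gene. At least 100 tags were found in 7 of the 14 sites. Tags per kb divided by the fold enrichment, a quotient that rises with the local control level but is built from the same values, had a median of 4.57 before, 7.09 inside and 7.91 after Rad51b, against 6.18 in the whole uterus list. The part of the control level in the differences between the segments was not tested, and the control tags themselves were not analysed here.

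**Figure D4:**
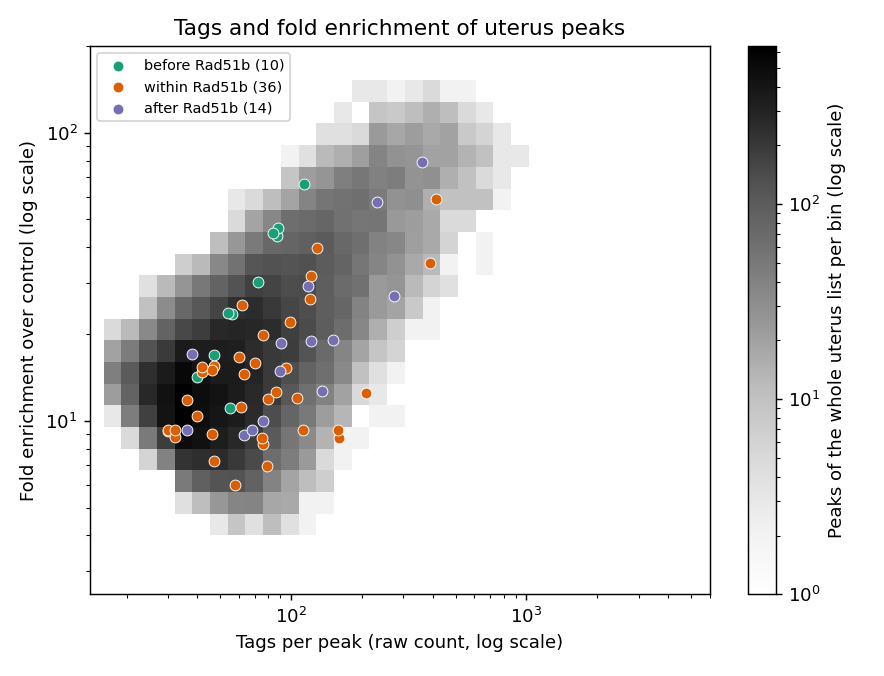
Fold enrichment over control against tags per peak (both log scales) for the uterus sites of the window, coloured by their place before, within or after the approximate extent of Rad51b; grey shows the number of peaks of the whole uterus list in each bin. Sites before the gene lie toward higher enrichment for their tags, at 11.1- to 66.1-fold, and several sites within it lie at the low edge, down to 6.00-fold.

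The uterus sites lay close together. The median distance between neighbouring summits was 5.88 kb in the window and 28.9 kb in the whole uterus list. Another uterus summit lay within 10 kb of 49 of the 60 sites (81.7%, Wilson interval 70.1 to 89.4), against 47.5% of the list. A dense window must hold close neighbours, so this shares its source with the count that chose the window. Before Rad51b the count was 4 of 10, inside it 31 of 36, and after it 14 of 14. The longest gap, 149 kb, lay before the gene between sites 9 and 10, and 6 of the 59 gaps were longer than 50 kb. In 11 gaps the summits were less than 2 kb apart. The shortest was 0.777 kb, between sites 16 and 17, whose peaks were separated by only 3 bp.

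When summits at most 10 kb apart were joined, the window held 12 chains with 49 sites and 11 single sites. Of the single sites, 6 lay before the gene, and the chains there were pairs: sites 1 and 2 (55 and 47 tags) and sites 3 and 4 (56 and 54 tags, 0.808 kb apart). Site 11, the first inside the gene, also stood alone, with 129 tags at 39.9-fold.

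The chains inside Rad51b were of very different size. The first, sites 12 to 17, ran over 14.5 kb from 80427143 to 80442755 and held 767 tags, of which site 12 alone gave 389. Sites 18 to 20, at 80453302 to 80457678, followed with 46 to 106 tags at 12- to 15.2-fold. From there the middle of the gene was thinly occupied, with gaps of 73.7 and 73.2 kb on either side of the single site 21 (46 tags, 8.97-fold). Sites 22 to 24, at 80603830 to 80613571, formed the next chain, with 76 to 160 tags but only 8.34- to 11.9-fold enrichment. After the single site 25 (36 tags), sites 26 and 27 (40 and 86 tags) and sites 28 and 29 (79 and 42 tags) were pairs.

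Farther along the gene the chains were longer. Sites 30 to 34 spanned 22.1 kb at 80761934 to 80785132 and held 832 tags, 411 of them in site 30, while site 32 held only 30. The neighbours of the strong site 30 were of low enrichment, 9.32-, 9.19- and 9.32-fold at sites 31, 32 and 33, and site 34 reached 31.9-fold. Sites 36 to 42 spanned 29.3 kb at 80833330 to 80863134, with 47 to 208 tags at 7.28- to 19.9-fold. The chain of sites 44 to 46, at 80894420 to 80910332, held 32 to 62 tags and included the one site shared with liver. Sites 35 and 43 were single and among the weakest, with 30 and 32 tags.

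After Rad51b all 14 sites fell into 2 chains. Sites 47 to 54 formed the longest of the window, with 8 sites over 32.5 kb at 80933680 to 80966660 and 1057 tags in all, and their enrichment ranged from 8.93- to 57.4-fold. In the whole uterus list, 45 of 4449 chains had 8 or more peaks, and the longest had 13. Sites 55 to 60 followed at 80980375 to 80993658, with 792 tags, 359 of them in site 60. The density of this stretch thus came from 2 long chains, each with 1 or 2 sites of over 200 tags among weaker ones.

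The 4 liver sites were weak within their own list. The first lay at 80642409 to 80643093 with 59 tags (44.9 to 76.1) at 6.8-fold, and the second at 80658721 to 80659303 with 52 tags (38.8 to 68.2) at 8.15-fold. The third lay at 80742623 to 80743417 with 54 tags (40.6 to 70.5) at 7.25-fold. The fourth, at 80900349 to 80900849, had 31 tags (21.1 to 44.0) at 11.6-fold. The medians over the whole liver list were 58 tags and 11.2-fold. The first 3 sites thus had tags near the list's median and a low enrichment, at percentiles 5.91, 16 and 8.84, while the fourth was at percentile 53.6 by enrichment and 4.23 by tags. Their MACS scores were 108 to 139, below the liver list's median of 172, and their false discovery rate was 0.02%. None reached 200, a score that 2827 of the 6932 liver peaks reached.

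Of the liver sites only the fourth overlapped a uterus site. Its partner, site 45 at 80900273 to 80900837, held 62 tags (47.5 to 79.5) at 25.2-fold in uterus, and the summits of the pair were 4 bp apart, with 489 bp shared. This was 1 of 60 uterus sites (1.67%, Wilson interval 0.295 to 8.86), against 6.58% of the whole uterus list, and 1 of 4 liver sites, against 23.7% of the liver list. The small number of liver sites, which was part of the choice of the window, limits the share of uterus sites. The Zmiz1 window, with 29 liver peaks, had 10 overlapping uterus peaks of 53, and the megabase after the Rad51b window, with 9 liver peaks, had 6 of 43.

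The other 3 liver sites lay in gaps of 36.6, 50.4 and 45.8 kb between neighbouring uterus summits. The nearest uterus summit was 7, 9.36 and 19.3 kb away. For the first and the second it was the same weak site 25, with 36 tags at 11.8-fold. For the third it was site 30, the leading uterus site by tags. None of the strong uterus sites had a liver summit nearby: the nearest one was 19.3 kb from site 30, 215 kb from site 12 and 92.7 kb from site 60. In all, 4 of the 60 uterus sites lay within 10 kb of a liver summit (site 45 included), against 14% of the uterus list. A uterus site without a called liver peak may still carry liver signal under the p cutoff of 1e-10, since tags outside called peaks were not analysed here. The ESR1 libraries were similar in depth, with 22298008 unique tags in uterus and 20016495 in liver.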

How the data were processed

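Peaks had been called by the authors in each ESR1 library against its input with MACS 1.3.7.1 on mm9, per the submitters' processing notes, at a p cutoff of 1e-10 per the file headers; no source used here names the aligner. The deposited lists give a raw count of tags per peak, not scaled to depth, a fold enrichment, which is a ratio to the local control background, a MACS score (10 times −log10 of the p-value) and a false discovery rate in percent. Positions of the deposited lists were taken as 1-based, and a summit as start plus offset minus 1.

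A uterus and a liver peak were called overlapping when they shared at least 1 bp. Wilson and Poisson intervals are at 95% and cover counting error only. With 1 library per tissue no test was made. The functions for overlap, distance, chains and windows were tested on simulated data. The window and lists were chosen with earlier results of these data known. The sites named were all liver sites, the 8 uterus sites with most tags, the 4 of highest and 4 of lowest enrichment, the first, the last and the overlapping ones, and the nearest outside; others are named as members of chains or were picked after their values were seen. Site sequence, response elements, exon context and a planned list of homologous recombination genes need an mm9 genome or annotation and were not analysed here. Computation used scipy 1.17.1, pandas 2.3.3 and numpy 2.4.6 under Python 3.11.15, and plots used matplotlib 3.10.9.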

Additional observations from a re-analysis of the deposited data

How the results depend on the processing

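Of 42 recomputed values, 30 stayed within 1.5 times a count or rank, or within the 95% interval of a share or median, and 12 did not. Some of the 30 could not change: the liver count stayed at 4 when only the uterus list was limited. Limiting the uterus list to the 6932 peaks of highest fold enrichment left 18 uterus sites in the window, limiting it to the 6932 with most tags left 26 (and 0 overlapping a liver peak), and the approximate extent of Rad51b held 36. With a minimum MACS score of 200 the window held 0 liver peaks and 0 overlapping uterus sites, and its rank was 2. The median of its uterus sites was then 91 tags and 19.0-fold. This score was reached by 2827 of the 6932 liver peaks and 13382 of the 24836 uterus peaks. At a fold enrichment of at least 10, reached by 4343 liver and 19828 uterus peaks, the window held 1 liver peak and its rank was 3. Within 5 kb instead of 10 kb, 66.7% of the uterus sites had a neighbour. By construction, counts cannot rise when peaks are removed, and the share with a neighbour cannot rise when the distance is shortened. When peaks are removed, that share can move either way. It was 80.5% at the score limit and 70.5% at the fold limit, against 81.7%. The cause of the changes in rank was not tested. With windows shifted by 0.5 Mb, that from 80.5 Mb held 73 uterus and 12 liver peaks and again ranked 1. No paired analysis was possible because each tissue has 1 library, and no replicate could be left out. Counting error relative to the count was largest at the sites with fewest tags, sites 32 and 35 with 30 tags each. The effect of depth on the sites was not tested.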

Other observations

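The fold enrichment 9.32 recurred in the window. It was given for 6 of the 60 uterus sites (10%), namely sites 31, 33, 35, 44, 56 and 57, although their tags ranged from 30 to 158. In the whole uterus list it was the most frequent of 4316 distinct values, with 438 peaks (1.76%) of 22 to 195 tags. This was picked after the values were seen, and why one value recurs was not tested.

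Site 60 had a MACS score of 3228, while 279 uterus peaks, site 30 among them, share the value 3100. In the uterus list 34 peaks had a score over 3100. Why so many peaks share 3100 was not tested, so these scores do not order sites 30 and 60. Site 30 held more tags (411 against 359), and site 60 had the higher enrichment (79.2- against 58.9-fold).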
